A study of Homo sapiens with 12 samples.

Results

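The cytosolic ribosomal protein genes were examined across K562 cells, K562 cells given lycorine, imatinib-resistant K562/IM cells and the group whose labels read K562/IM+L. The members were picked by symbol alone, as every row of the count table named RPL or RPS with a number and an allowed letter, together with RPLP0, RPLP1, RPLP2 and RPSA. The rule found 82 of the 19447 genes of the table. Of these, 77 encode the core proteins of the cytosolic ribosome, 46 of the large (60S) and 31 of the small (40S) subunit. The remaining 5 are the paralogs RPL3L, RPL10L, RPL36AL, RPL39L and RPS27L, which are described apart. The core genes lie on 21 chromosomes.

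A ribosome is built from ribosomal RNA and a set of proteins that are needed in nearly equal numbers, and surplus copies of a single protein are degraded. Most of these proteins are encoded by messages that begin with a run of pyrimidines right at the cap, the terminal oligopyrimidine (TOP) motif, through which the mTOR pathway and LARP1 adjust their translation and stability as a group. In blood cells ribosomal protein dosage is of special interest, because loss of a single copy of genes such as RPS19, RPS26 or RPL11 causes Diamond-Blackfan anaemia, a failure of red cell production.

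K562 is an established human myeloid leukemia line with erythroid features that carries BCR-ABL, the kinase inhibited by imatinib. Poly(A)-selected RNA was sequenced in 12 libraries, 3 in each of 4 groups. K562 was the untreated parental line, and K562+L was the same line given 6 µM lycorine, an alkaloid from plants of the amaryllis family. K562/IM was derived from K562 by growth in stepwise raised imatinib and was kept in 5 µM of it, as 1 selected line rather than several independent ones. The last group carries the label K562/IM+L, that is, K562/IM with 6 µM lycorine. The exposure time before sequencing is not given in the sources used here, and neither is whether the K562/IM cells were in imatinib when RNA was taken. The labels do not say that the 3 libraries of a group came from separate cultures, so that p-values measure only the spread between these libraries, which may be technical.

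Total counts ran from 75093844 to 107344598 per library, and the core ribosomal protein genes took between 4562403 and 10565804 of them, so that replicate spread rather than counting limited precision. Before the libraries were compared, their labels were checked. The sample titles call the group labelled K562/IM+L by another code than the study's own drawings do, and the transcript of ABCB1, the drug efflux pump P-gp, was therefore read in every library. In CPM, the counts scaled to the normalized library size, ABCB1 stood at 1.68, 1.86 and 1.72 in K562, at 3.83, 3.84 and 5.14 in K562+L and at 23.0, 21.9 and 25.8 in K562/IM. With that label the values were 0.706, 0.490 and 1.06 CPM, below every K562 library. These 3 are therefore called the labelled libraries throughout. The main edgeR tests of K562+L and of K562/IM against K562 do not use them, and every other comparison rests on them. CPM values, and with them the overlap of libraries, were scaled with factors from all 12 libraries, these included. All 12 K562 marker genes were above 1 CPM in every library, and of 5 lymphoid markers 3 were below 1 CPM in every library and none was above it in all, although CD3D reached 21.3 to 23.0 CPM in K562/IM. Of the epithelial markers KRT5 was below 1 CPM throughout, whereas EPCAM ranged from 42.8 to 132 CPM. An erythroid gene moved with the labelled libraries: the fetal globin gene HBG2 ran from 13990 to 19364 CPM there against 928 to 1011 in K562/IM and 2633 to 3904 in K562. Its part in the ribosomal protein results was not tested.

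The annotated transcript starts are shown first, because the TOP motif is read from them. RefSeq starts (GRCh38.p14) were found for 62 of the 77 core genes. At 46 of them (74.2%) the first transcribed base was a C followed by at least 4 C or T, against 961 of 15096 genes of the table with a start (6.37%). The following lines hold 30 bases each, 10 before and 20 from the annotated first base on, 5′ to 3′ on the coding strand, with the unbroken C or T run through the first base in capitals. They show core genes that led a comparison or had the typical start, then RPS26, which departed from the family, then paralogs.
RPS12, chr6:132814559-132814588, +: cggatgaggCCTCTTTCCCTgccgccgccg
RPS21, chr20:62387093-62387122, +: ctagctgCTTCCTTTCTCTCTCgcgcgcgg
RPS27, chr1:153990752-153990781, +: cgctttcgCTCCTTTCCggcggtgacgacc
RPL13A, chr19:49487598-49487627, +: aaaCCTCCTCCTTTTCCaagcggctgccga
RPL28, chr19:55385922-55385951, +: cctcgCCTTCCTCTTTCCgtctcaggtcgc
RPLP0, chr12:120201092-120201121, -: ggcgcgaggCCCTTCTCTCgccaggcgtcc
RPS26, chr12:56041908-56041937, +: acataacctcgattttcttccgccatccgg
RPL36AL, chr14:49620607-49620636, -: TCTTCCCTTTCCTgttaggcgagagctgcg
RPL22L1, chr3:170870176-170870205, -: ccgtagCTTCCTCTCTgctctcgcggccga
RPS27L, chr15:63157458-63157487, -: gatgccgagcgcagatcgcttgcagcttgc
RPL26L1, chr5:172958719-172958748, +: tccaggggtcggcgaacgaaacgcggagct
RPL7L1, chr6:42879606-42879635, +: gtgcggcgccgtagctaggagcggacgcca
The core genes above RPS26 carried a run through the first base, and so did the paralogs RPL36AL and RPL22L1. In RPL36AL the run of 15 bases lay mostly before the first base and reached beyond the bases shown. From the first base on it ended too soon to meet the definition of the start counted above. The annotated starts of RPS27L, RPL26L1 and RPL7L1 held no such run, and that of RPS26 began with G, with the next run of C or T a little downstream. Which start these cells used was not measured. In the 300-base windows around the starts (250 before, 50 after, both strands), CCGGAAG was present for 22 of the 62 core genes (35.5%) against 16.8% of all genes, AAGATGG for 8 (12.9%) against 7.98%, GGGCGG for 36 (58.1%) against 65.2%, TATAAA for 5 (8.06%) against 12.4% and CACGTG for 4 (6.45%) against 11%.

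The family was first summed in each library, as the percent of all counts that fell on the 77 core genes. In K562 the share was 7.92%, 8.89% and 10.5% in the 3 libraries, in K562+L 6.23%, 6.77% and 5.87%, and in K562/IM 6.01%, 6.29% and 5.88%. The labelled libraries held 12.8%, 13.0% and 10.1%. Every K562+L and K562/IM library was below every K562 library, every labelled library was above every K562/IM library, and the labelled and K562 libraries overlapped. The means were 9.10% ± 1.31 (SD, n = 3) in K562, 6.29% ± 0.453 in K562+L, 6.06% ± 0.212 in K562/IM and 12% ± 1.61 in the labelled libraries. The exact two-sided permutation p was 0.1 for K562+L against K562, for K562/IM against K562 and for the labelled libraries against K562/IM, the smallest value that 3 against 3 libraries allow, and 0.2 for the labelled libraries against K562. In bulk RNA, fewer cells of a type and less of a message per cell cannot be told apart.

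**Figure D1:**
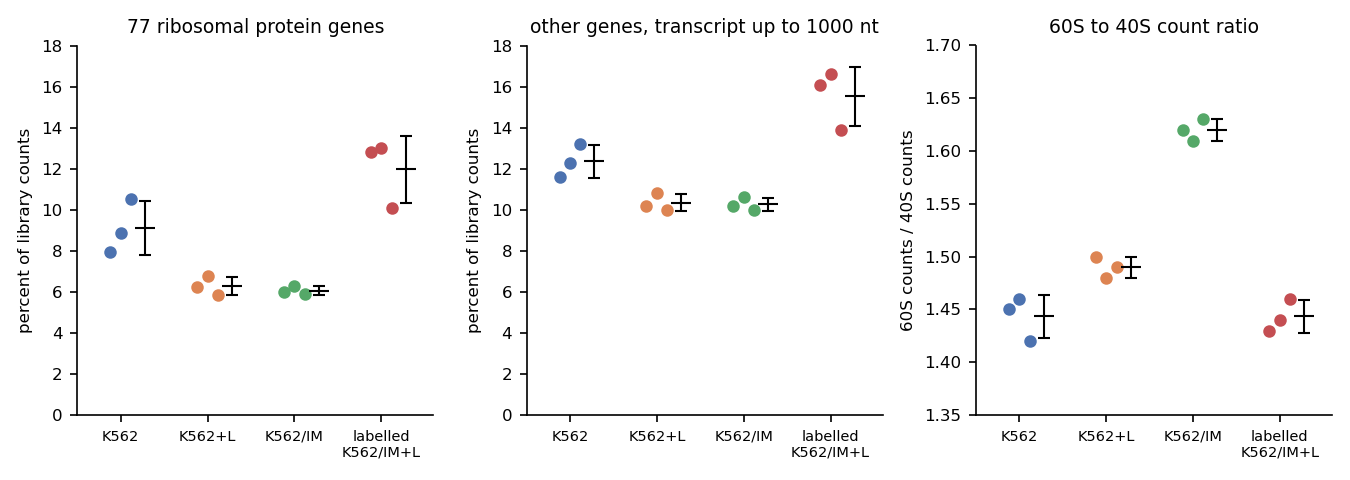
Share of counts per library for the 77 ribosomal protein genes (left) and for other genes with transcripts of up to 1000 nt (middle), in percent, and the ratio of 60S to 40S counts (right, axis not from 0). Points are libraries, bars the mean and SD of 3. K562+L and K562/IM lay lowest in both shares, and K562/IM stood alone in the ratio at 1.61 to 1.63.

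Ribosomal protein messages are short, with a median annotated length of 691 nt against 2093 nt over all matched genes, so that other short genes were followed beside them. The 2972 other genes with transcripts of up to 1000 nt took 12.4% ± 0.813 of counts in K562, 10.4% ± 0.415 in K562+L, 10.3% ± 0.282 in K562/IM and 15.5% ± 1.46 in the labelled libraries (SD, n = 3). The group means had the same order as those of the ribosomal protein genes, although the K562+L and K562/IM libraries overlapped. In the labelled libraries the fetal globin genes HBG1 and HBG2 averaged 8534 and 17029 CPM. Their means were 1773 and 3327 in K562, 1057 and 2041 in K562+L and 541 and 978 in K562/IM. How much of the share of short genes fell on such abundant single genes was not measured, nor whether the order holds without them. The part of transcript length in each comparison was measured with a correction for length, whose values stand beside the results below.

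The balance of the subunits differed between the groups as well. Counts on 60S genes over counts on 40S genes came to 1.45, 1.46 and 1.42 in K562, to 1.5, 1.48 and 1.49 in K562+L, to 1.62, 1.61 and 1.63 in K562/IM and to 1.43, 1.44 and 1.46 in the labelled libraries. The K562/IM libraries lay above all 9 others. The difference from K562 was 0.178 and that of the labelled libraries from K562/IM was -0.179 (exact two-sided permutation p = 0.1 each, the smallest possible). K562+L lay 0.0469 above K562 (exact permutation p = 0.1), and the labelled libraries and K562 overlapped (difference -0.00124, exact permutation p = 1.0).

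**Figure D2:**
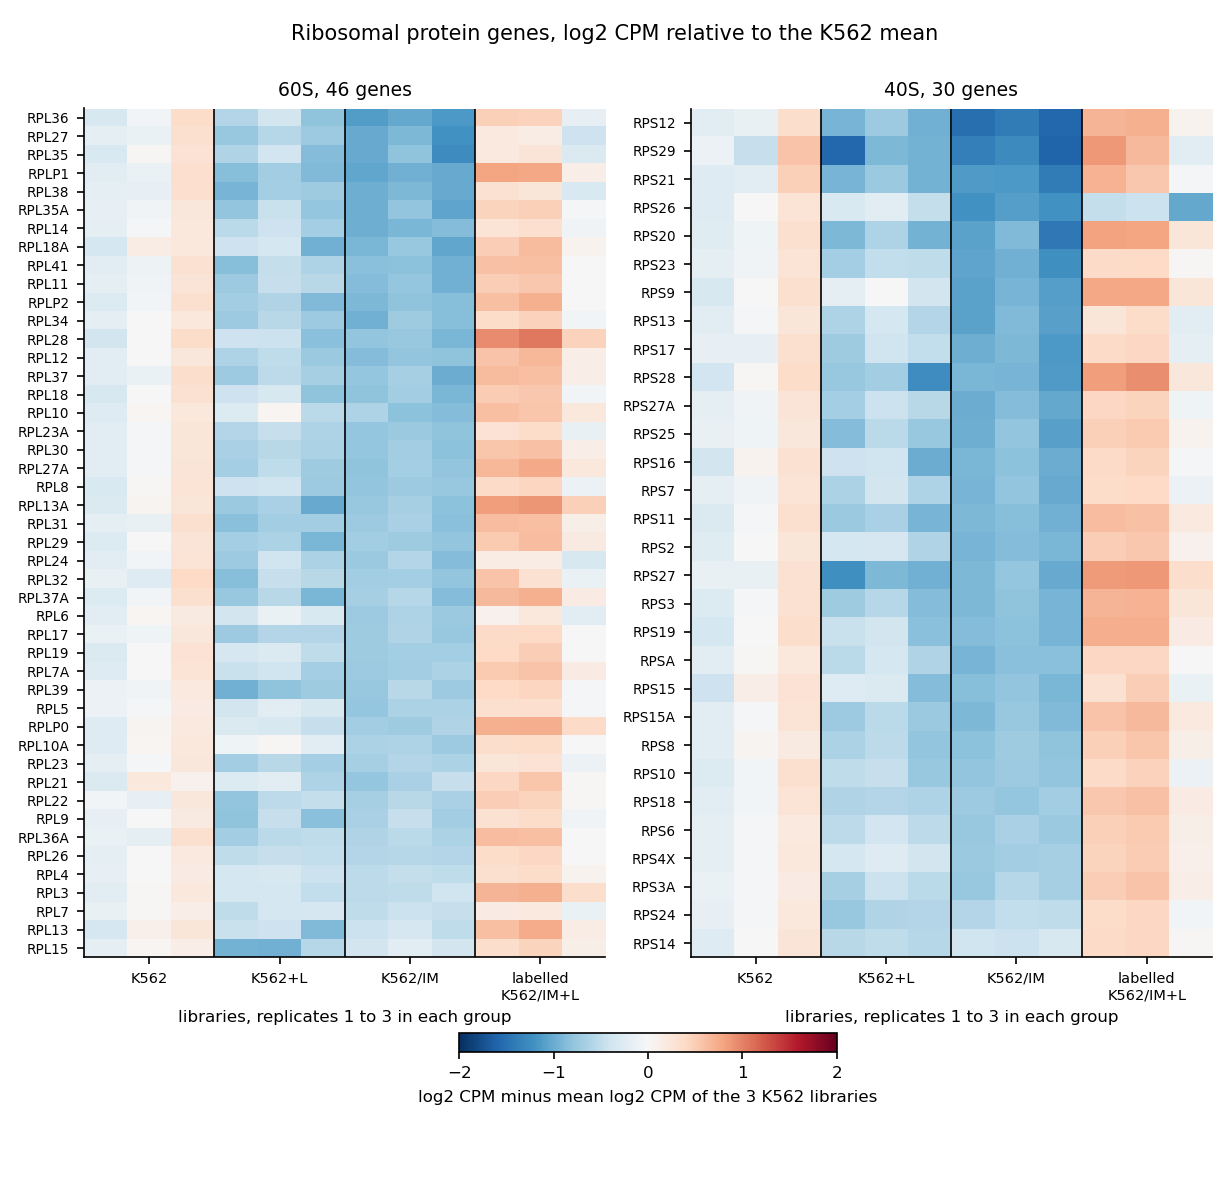
Log2 CPM of 76 of the 77 core genes (rows, 60S left and 40S right, ordered by their mean in K562/IM) in the 12 libraries (columns, replicates 1 to 3 in each group), relative to the mean of the 3 K562 libraries. Blue is lower and red higher. K562+L and K562/IM are blue in almost every row, the first 2 labelled libraries are red in almost every row, and RPS26 is the row that stays blue there.

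Lycorine in the imatinib-sensitive line was examined by comparing K562+L with K562. By the quasi-likelihood test of edgeR, with p-values adjusted after Benjamini and Hochberg over all genes tested, 68 of the 77 core genes were lower in K562+L at an adjusted p under 0.05, where 19.0% of the 12927 genes tested were lower. All 77 log2 fold changes were negative, so that 0 genes were higher by edgeR at an adjusted or an unadjusted p or by DESeq2, and 0 were higher without overlap of libraries (25.6% of all genes) or past a log2 fold change of 1 (2.38%). The median log2 fold change was -0.60, with a range from -1.18 to -0.11, beside a median of -0.00 over all genes tested. In 68 of the 77 genes every K562+L library was below every K562 library, against 25.9% of all genes tested.

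The genes that fell most were all of the small subunit, RPS29, RPS27, RPS28, RPS21, RPS12 and RPS20. RPS27, a zinc-finger protein on the surface of the small subunit, stood at 788, 792 and 1085 CPM in K562 and at 377, 471 and 451 CPM in K562+L. The groups were well apart, and the log2 fold change was -1.04 ± 0.145 (SE, edgeR adjusted p = 0.0018). RPS29, a small zinc-binding protein of the same subunit, fell by 1.18 on the log2 scale (adjusted p = 0.013), from 240, 188 and 387 CPM to 87.1, 139 and 135. Without the first K562+L library its log2 fold change was -0.99 (adjusted p = 0.055). RPS29 and RPS27 were the only core genes past a log2 fold change of 1, against 4.01% of all genes. RPS28 (-0.91), RPS21 (-0.91), RPS12 (-0.89) and RPS20 (-0.84) followed with adjusted p-values from 0.0041 to 0.011. RPS12 stood at 916, 955 and 1358 CPM in K562 against 554, 637 and 547 in K562+L.

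In the stalk, the flexible arm of the large subunit that calls elongation factors to the ribosome, all 3 genes were lower. RPLP1 fell by 0.83, RPLP2 by 0.74 and RPLP0, the scaffold that carries both, by 0.37 (edgeR adjusted p = 0.0043, 0.0075 and 0.038), and the differences between them were not tested. The call of RPLP0 did not hold with the length correction (-0.14, adjusted p = 0.18), or without the second or the third K562 library or any K562+L library (-0.40 to -0.26, adjusted p from 0.079 to 0.12). RPL5 and RPL11, which bind 5S ribosomal RNA and can hold back MDM2 and so stabilise p53, fell by 0.31 and 0.59 (adjusted p = 0.027 and 0.0094). RPL5 was not called with the length correction (-0.10, adjusted p = 0.19), or without the second K562, the first K562+L or the third K562+L library (-0.33 to -0.28, adjusted p from 0.067 to 0.093). RPS6, the substrate of S6 kinase, fell by 0.49 and RPL13A by 0.81.

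Of the core genes, 9 did not pass, among them RPL6, RPL10, RPL10A, RPL19, RPL21, RPS9, RPS15 and RPS26. RPL10A, a protein of the L1 stalk, stood closest to no difference, at 851, 1046 and 1183 CPM in K562 and 959, 1031 and 875 CPM in K562+L (log2 fold change -0.11, adjusted p = 0.53). RPL10, which joins the large subunit last, had a log2 fold change of -0.25 (adjusted p = 0.25). In each of the 9 the libraries of the groups overlapped.

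The fall was smaller once transcript length was corrected for. For other genes of up to 1000 nt the median was -0.30, and 563 of the 1585 tested were lower. After a correction for length in each library, chosen after the data were seen, 50 of the 77 genes were lower and the median was -0.29. The share of all genes lower under that correction is not given here. Without the first K562+L library 41 genes were lower, and without other libraries 46 to 74.

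Imatinib-resistant cells were compared with the parental line next. All 77 core genes were lower in K562/IM than in K562 (edgeR, adjusted p under 0.05), where 27.1% of the 13406 genes tested were lower, and 0 were higher by edgeR at an adjusted or an unadjusted p or by DESeq2. The median log2 fold change was -0.82, with a range from -1.52 to -0.33, beside 0.04 over all genes. The libraries were apart in 76 genes, against 31.1% of all genes tested, and overlapped in RPL13. Past a log2 fold change of 1 were 14 genes, against 5.29% of all genes, and 10 of these encode small subunit proteins. The 31 genes of the 40S subunit stood at a median of -0.91, those of the 60S subunit at -0.76.

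RPS12 had the largest change and fell by 1.52 on the log2 scale (SE 0.151, edgeR adjusted p = 0.00012). It stood at 371, 402 and 355 CPM in K562/IM against 916, 955 and 1358 in K562, so that the highest K562/IM library was under the lowest K562 library by a wide margin. RPS29 fell by 1.48, RPS21 by 1.27, RPS26 by 1.19, RPL36 by 1.13 and RPS20 by 1.12, with adjusted p-values from 0.00019 to 0.0015. RPS26 sits at the channel through which messenger RNA leaves the small subunit. It held 274, 327 and 396 CPM in K562 and 142, 153 and 142 CPM in K562/IM.

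At the other end stood RPL15 (-0.33), RPS14 (-0.40), RPL13 (-0.44), RPL7 (-0.47) and RPL3 (-0.49). RPS14 is the gene lost in the 5q- syndrome, and its call did not hold under a scaling by total counts (-0.20, adjusted p = 0.14), the length correction (-0.10, adjusted p = 0.35), or without the second K562 library or any of the K562/IM libraries (-0.43 to -0.38, adjusted p from 0.053 to 0.081). RPL3 and RPL4, long proteins that reach into the core of the large subunit, fell by 0.49 and 0.51. In the stalk RPLP1 fell by 1.02, RPLP2 by 0.87 and RPLP0 by 0.69. RPSA fell by 0.88, RPS6 by 0.73, RPL5 by 0.68 and RPL11 by 0.88.

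The length correction left 75 of the 77 genes lower, with a median of -0.56, while other genes of up to 1000 nt had a median of -0.24. For all genes, the share lower under that correction is not given here. Scaling by total counts moved the median of all genes by 0.19 and that of the core genes to -0.63, which keeps them 0.86 below the median of all genes, against 0.87 with the normalization used here.

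The labelled libraries were then compared with K562/IM. All 77 core genes were higher in the labelled libraries (edgeR, adjusted p under 0.05), where 33.2% of the 13727 genes tested were higher and 33.6% lower, and 0 were lower by edgeR at an adjusted or an unadjusted p or by DESeq2. The libraries were apart upwards in all 77, against 35.0% of all genes tested, and downwards in 0, against 38.3%. The median log2 fold change was 1.18, from 0.57 to 2.03, beside -0.01 over all genes tested, and 58 were past a log2 fold change of 1, against 14.7% of all genes. This comparison shares the K562/IM libraries with the one before, so that the values of both are given for each gene and are not independent.

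RPS12 rose most, to 1701, 1734 and 1108 CPM from 371, 402 and 355. The log2 fold change was 2.03 ± 0.169 (SE, edgeR adjusted p = 3.7e-05). RPS29 rose by 1.94, RPS20 by 1.76, RPS28 by 1.7, RPL28 by 1.68 and RPS21 and RPS9 by 1.67 each. RPL28, a protein of the large subunit, stood at 440, 448 and 402 CPM in K562/IM and at 1460, 1575 and 1049 in the labelled libraries. In both genes the third labelled library was the lowest of its group and still above every K562/IM library.

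RPL13A, which also leaves the ribosome to silence inflammatory messages, rose by 1.51, from 1763, 1887 and 1693 CPM to 5333, 5535 and 4145. The stalk genes rose by 1.31 (RPLP0), 1.61 (RPLP1) and 1.34 (RPLP2). RPS19, the gene most often mutated in Diamond-Blackfan anaemia, rose by 1.45, RPL11 by 1.25, RPS6 by 1.12 and RPL5 by 0.92. The smallest increases were those of RPL7 (0.57), RPS26 (0.57), RPL15 (0.66) and RPS14 (0.68).

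After the length correction all 77 genes were still higher, with a median of 0.85 and 22 past a log2 fold change of 1. Other genes of up to 1000 nt had a median of 0.33.

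Against parental K562 the labelled libraries differed far less. In edgeR 10 of the 77 core genes were higher, RPL3, RPL10, RPL13A, RPL27A, RPL28, RPLP0, RPS3, RPS9, RPS20 and RPS27, where 28.2% of the 13307 genes tested were higher. RPS26 was the only core gene that was lower, where 27.8% of all genes tested were. The libraries were apart in 5 of the genes that rose, against 33.4% of all genes, and in RPS26, against 30.1%. Past a log2 fold change of 1 there were 0 core genes, against 14.9% of all genes upwards and 8.91% downwards. The median log2 fold change was 0.32, with 74 of 77 values positive, and the other 66 genes did not pass, which does not show that their levels were equal.

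RPL28 rose by 0.79 (SE 0.222, edgeR adjusted p = 0.019), from 589, 767 and 977 CPM to 1460, 1575 and 1049. RPL13A rose by 0.70 (adjusted p = 0.01), from 2441, 3101 and 3542 CPM to 5333, 5535 and 4145, and it passed under every alternative run. RPS27 rose by 0.67, RPLP0, which held 2759, 3423 and 3768 CPM in K562 and 5375, 5421 and 4274 in the labelled libraries, by 0.58, and RPL3 by 0.56 (adjusted p = 0.02, 0.013 and 0.015). In each of these 5 genes every labelled library was above every K562 library. Without the first or the second labelled library RPL28, RPS27, RPLP0 and RPL3 were not called (adjusted p from 0.055 to 0.073).

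RPS26 went the other way. It stood at 274, 327 and 396 CPM in K562 and at 236, 244 and 161 in the labelled libraries, so that the groups did not overlap, and the log2 fold change was -0.66 ± 0.200 (SE, adjusted p = 0.026). The call did not hold without the second (-0.68, adjusted p = 0.062) or the third K562 library (-0.52, adjusted p = 0.065), or under upper-quartile scaling (-0.51, adjusted p = 0.064) or a GC correction (-0.51, adjusted p = 0.095).

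The number of genes higher turned on single libraries. It was 4 without the first, 2 without the second and 30 without the third K562 library, and 1 without the first, 1 without the second and 49 without the third labelled library. DESeq2 gave 25, a fit of all 12 libraries 35 and the length correction 35. The shares of all genes called under these settings are not given here, so that these counts cannot be set against them.

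**Figure D3:**
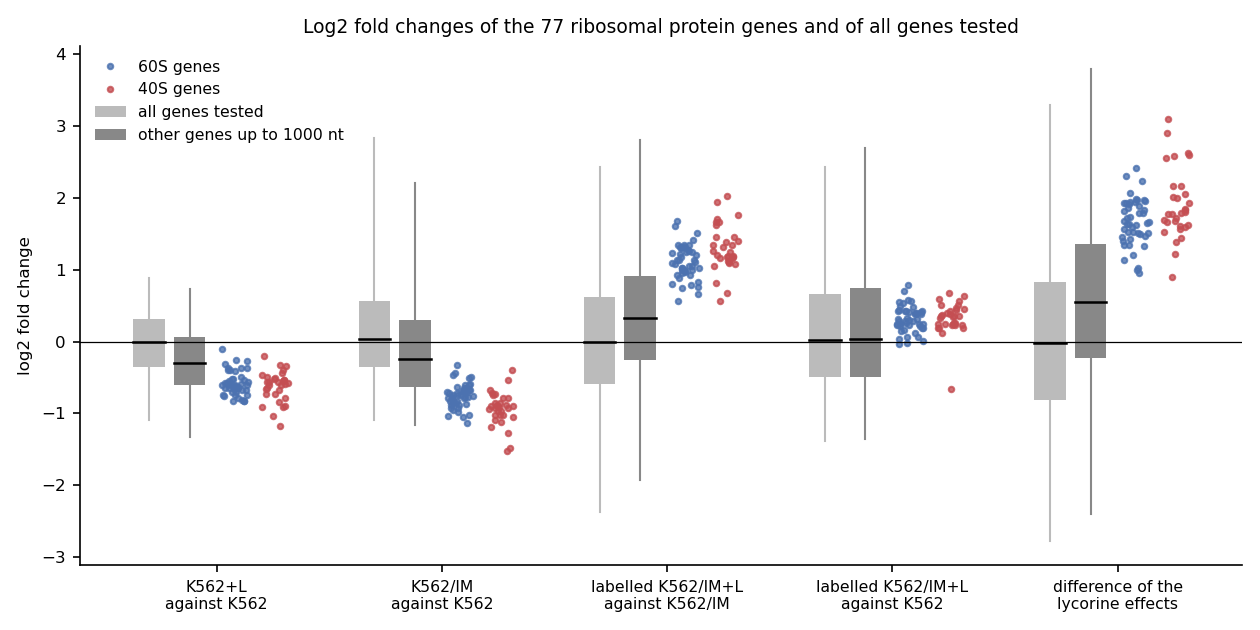
Log2 fold changes of the 46 60S (blue) and 31 40S (red) genes in each comparison, beside all genes tested and other genes of up to 1000 nt (grey boxes from the 25th to the 75th percentile, line at the median, whiskers from the 5th to the 95th). In the first 2 comparisons the points lie below the median of all genes tested. They lie at 0.57 to 2.03 in the comparison of the labelled libraries with K562/IM and mostly between 0 and 1 against K562, where RPS26 is the low point, and at 0.90 to 3.09 for the difference of the lycorine effects at the right.

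To compare the response to lycorine between both lines, an interaction term was fitted to the 12 libraries, (labelled K562/IM+L minus K562/IM) minus (K562+L minus K562). All 77 core genes had a higher change in K562/IM, as labelled, than in K562 (edgeR, adjusted p under 0.05), where 29.9% of the 13995 genes tested did. The median difference was 1.72 on the log2 scale, from -0.02 over all genes, and 74 genes were past 1, against 17.5% of all genes. The largest were RPS29 (3.09), RPS12 (2.90), RPS27 (2.63), RPS28 (2.59), RPS20 (2.58) and RPS21 (2.56), and the smallest RPS26 (0.90) and RPL7 (0.95). With the length correction the median was 1.11, and 77 genes passed.

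The members were also compared among themselves. Each gene was set against the mean log2 level of all 77 in the same library, which removes the shared movement and needs no scaling factor. Between K562+L and K562, 65 of 77 genes shifted by at most 0.25 relative to that mean. The number was 63 between K562/IM and K562, 53 between the labelled libraries and K562/IM and 63 between the labelled libraries and K562. Shifts beyond 0.5 were found in 1, 2, 6 and 1 genes. Relative to that mean, libraries did not overlap in 15 genes upwards and 14 downwards for K562+L against K562, in 20 and 21 for K562/IM against K562, in 25 and 24 for the labelled libraries against K562/IM and in 22 and 17 for them against K562. These counts have no counterpart over all genes. The values were not tested, and the genes described next were chosen after their values were seen.

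RPS26 departed furthest. Relative to the family it stood 0.26 above K562 in K562+L, 0.36 below K562 in K562/IM (relative change -0.36) and 0.98 below K562 in the labelled libraries (relative change -0.98), with SDs between 0.02 and 0.06 within the groups and no overlap of libraries between any of these groups and K562. RPS12 followed another course, with relative changes of -0.28 in K562+L, -0.68 in K562/IM and 0.15 in the labelled libraries, each against K562, and the labelled and K562 libraries overlapped. RPS27 changed by -0.44 relative to the family in K562+L, by -0.08 in K562/IM and by 0.35 in the labelled libraries. RPL28 stayed within 0.03 of its K562 position in K562+L and K562/IM and stood 0.48 above it in the labelled libraries.

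Further members had their largest shift elsewhere. RPL10A stood 0.49 above its K562 position relative to the family in K562+L, against 0.16 in K562/IM. RPL15 and RPS14 stood 0.49 and 0.43 above theirs in K562/IM and within 0.07 of it in the labelled libraries. RPS29 had among the largest mean shifts, -0.55 in K562+L and -0.61 in K562/IM, but its SD within K562 was 0.38 and within K562+L 0.36. RPS26 and RPS29 have 30 and 32 annotated pseudogenes, and how reads shared with them were counted is not given in the sources used here.

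**Figure D4:**
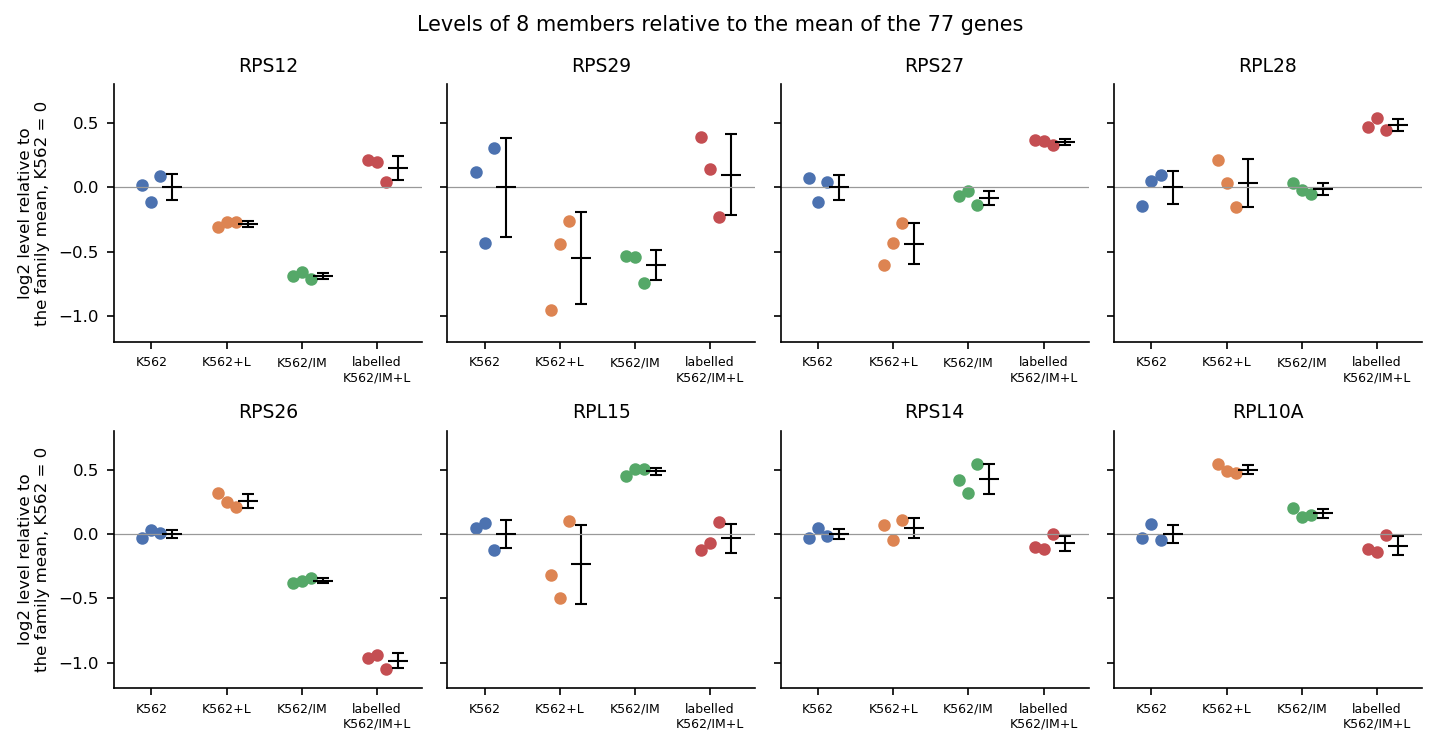
Log2 level of 8 members relative to the mean of the 77 genes in the same library, with the K562 mean of each gene set to 0. Points are libraries, bars the mean and SD of 3. RPS26 lies lowest in the labelled libraries (-0.98 against K562) with its 3 libraries close together, RPS12 in K562/IM, and the K562 and K562+L libraries of RPS29 are widely spread.

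Levels per length spanned a wide range. In CPM per kilobase of annotated transcript, averaged over the 12 libraries, the median core gene stood at 1335. The highest were RPS18 (4006), RPS2 (3437), RPLP0 (3267), RPL7A (2789) and RPLP1 (2649), and the lowest were RPL21 (58.0), RPS26 (209), RPS28 (280), RPL35A (311) and RPS29 (317). The length taken for a gene was the lower median of its complete protein-coding transcripts. It was 1326 nt for RPS28, 1234 for RPL35A and 1140 for RPS26, against 641 for RPL21 and 677 for RPS29. Places in this order depend on that choice, and which transcripts the cells used was not measured. RPL21 lay far under the next gene, although its product is a core protein of the large subunit, and 66 pseudogenes of it are annotated. Over the 77 genes, the number of annotated pseudogenes and the level per length had a Spearman rho of -0.05, given as a description across genes, which share all libraries.

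Near-identical or overlapping features also took counts. RPSAP58, a near-identical copy of RPSA, held 184 counts in the first K562+L and 197 in the second labelled library and from 7836 to 18181 in the other 10, at most 11.9% of RPSA. The readthrough genes RPL36A-HNRNPH2, RPL17-C18orf32 and RPS10-NUDT3 reached at most 7.84%, 4.35% and 4.08% of the counts of RPL36A, RPL17 and RPS10. The values of RPSA, RPL36A, RPL17 and RPS10 are uncertain at least to that extent. They have 74, 19, 26 and 11 annotated pseudogenes, and counts on other copies were not examined.

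Paralogs can replace a core protein in particular tissues, and they did not all move with their partners. RPS27L, a p53 target that can stand in for RPS27, moved with the family. It held 46.0, 49.4 and 51.8 CPM in K562, 25.9, 31.9 and 32.2 in K562+L, 30.4, 34.1 and 31.1 in K562/IM and 81.4, 84.5 and 64.6 in the labelled libraries. It fell by 0.71 in K562+L and by 0.62 in K562/IM against K562 and rose by 1.29 in the labelled libraries against K562/IM and by 0.63 against K562 (edgeR adjusted p = 0.0028, 0.00051, 4.3e-05 and 0.0045). Its counts were 5.61% ± 0.754 (SD, n = 3) of those of RPS27 in K562 and 5.40% ± 0.334 in the labelled libraries, against 6.93% ± 0.185 in K562+L and 6.72% ± 0.337 in K562/IM.

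RPL36AL, which encodes a nearly identical protein to RPL36A, fell by 0.92 in K562+L and by 0.83 in K562/IM and rose by 0.61 in the labelled libraries against K562/IM (adjusted p = 0.0027, 0.0012 and 0.0032). Relative to RPL36A it dropped from 28.9% ± 1.07 in K562 to 22.9% ± 0.808 in K562+L, 24.8% ± 0.701 in K562/IM and 18.5% ± 1.2 in the labelled libraries, with every library of the other groups under every K562 library. RPL39L, best known from the testis, fell by 0.69, 0.68 and 1.09 against K562 in K562+L, K562/IM and the labelled libraries (adjusted p = 0.0051, 0.0021 and 0.00042). In the labelled libraries it was also lower than in K562/IM by 0.37 (adjusted p = 0.026, with an adjusted p of 0.25 under a GC correction, 0.056 under upper-quartile scaling and 0.092 and 0.085 without the first and the second K562/IM library). It thereby came to 0.910% ± 0.101 of RPL39 there, against 2.29% ± 0.165 in K562.

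RPL3L, the muscle form of RPL3, was close to the lower limit of measurement at 0.115 to 0.802 CPM. Its log2 fold change in K562+L was -1.7 (adjusted p = 0.029) and in the labelled libraries against K562/IM -1.11 (adjusted p = 0.033), and leaving out single libraries raised these to at most 0.12 and 0.14. RPL10L, a testis form of RPL10, held at most 2 counts in any library and was not tested. Of the rule's 4 tested paralogs, 4 were lower in K562+L (19.0% of all genes) and 3 in K562/IM (27.1%). Against K562/IM the labelled libraries had 2 higher (33.2%) and 2 lower (33.6%). RPL3L, whose calls were lost without single libraries, is among those lower in K562+L and in the labelled libraries.

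Paralogs just outside the rule differed more. RPL22L1, the counterpart of RPL22 in blood cell development, fell by 0.76 in K562+L and by 1.46 in K562/IM and was also lower in the labelled libraries, against K562 (log2 fold change -1.27, adjusted p = 0.0025), where RPL22 had a log2 fold change of 0.30 (adjusted p = 0.15). It held 25.7, 27.5 and 32.7 CPM in K562, 9.59, 11.7 and 9.84 in K562/IM and 13.2, 14.6 and 8.33 in the labelled libraries. The last 2 groups overlapped, and the log2 fold change between them was 0.24 (adjusted p = 0.34), or 0.45 without the third labelled library (adjusted p = 0.012). Against RPL22 its counts were 2.98% ± 0.216 in K562 and 0.988% ± 0.136 in the labelled libraries.

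RPL7L1, a nucleolar protein that works in the assembly of the large subunit, ran opposite to the family under lycorine. It stood at 506, 498 and 473 CPM in K562 and at 676, 666 and 681 in K562+L, with the groups apart, and rose by 0.45 (SE 0.068, adjusted p = 0.0025). In K562/IM it held 360, 362 and 379 CPM and in the labelled libraries 248, 239 and 259, lower by 0.54 (log2 fold change -0.54, adjusted p = 0.00029). Its interaction was -1.01 (adjusted p = 8e-07), where each of the 77 core genes had a positive one. RPL7L1 kept these directions under every scaling run. RPL26L1 had a log2 fold change of -0.02 in K562+L (adjusted p = 0.89), which the length correction turned to 0.29 (adjusted p = 0.022). It fell by 0.56 in K562/IM and rose by 0.39 in the labelled libraries against K562/IM (adjusted p = 0.0041 and 0.0096), the last lost under total counts (0.20, adjusted p = 0.07) and the length correction (0.05, adjusted p = 0.49).

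**Figure D5:**
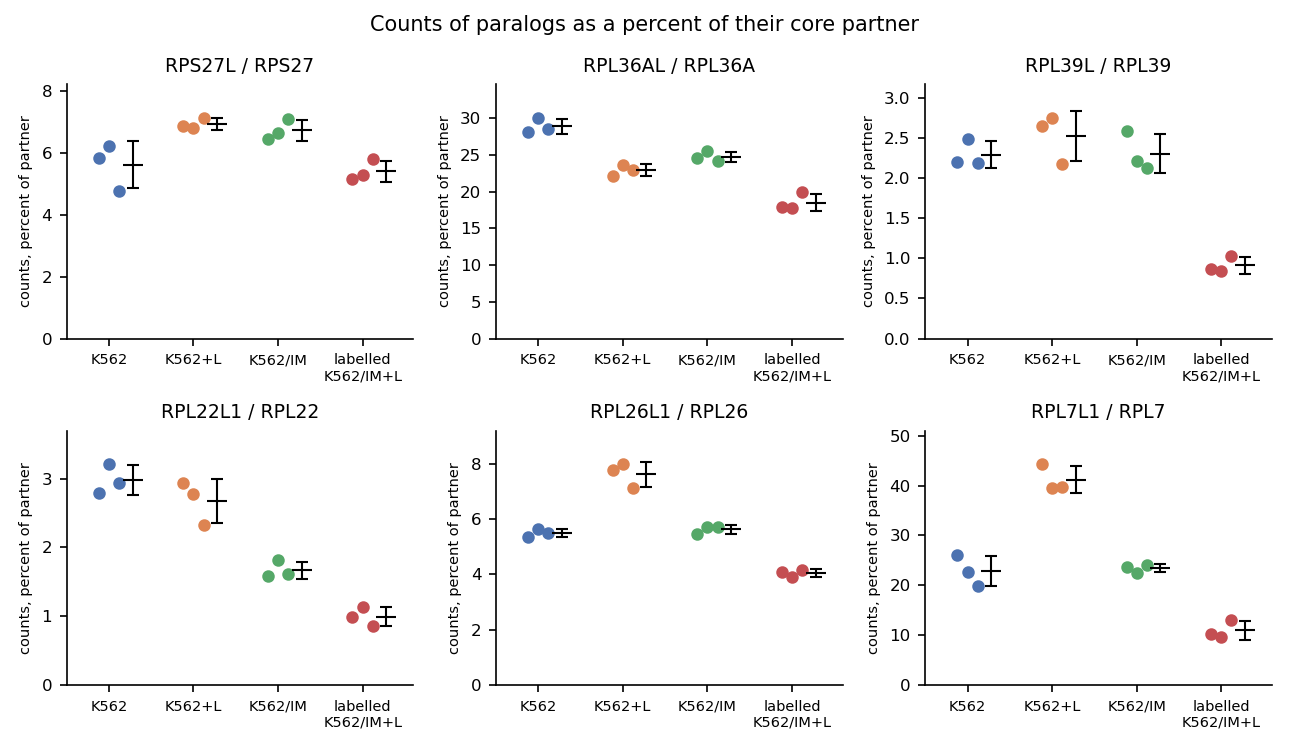
Counts of 6 paralogs as a percent of the counts of the core gene named after the slash, per library (points) with the mean and SD of 3 (bars), axes from 0. RPL36AL, RPL39L, RPL22L1, RPL26L1 and RPL7L1 are lowest relative to their partners in the labelled libraries, and RPL26L1 and RPL7L1 highest in K562+L.

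Subunits also exist whose symbols fall outside the rule, and 2 of them are given here. FAU is made as a fusion of RPS30 to a ubiquitin-like protein, and RACK1 is a scaffold on the head of the small subunit. In K562+L RACK1 fell by 0.39 (edgeR adjusted p = 0.026), while FAU had a log2 fold change of -0.48 (adjusted p = 0.061). Both calls changed with the settings. RACK1 was not called with the length correction (-0.11, adjusted p = 0.22), or without the second K562 or any K562+L library (adjusted p from 0.058 to 0.085), and FAU was called with DESeq2 (adjusted p = 0.014), in the fit of all 12 libraries (0.043) and without the first K562 library (-0.64, adjusted p = 0.0099). In K562/IM FAU fell by 0.85 and RACK1 fell by 0.52 against K562, and in the labelled libraries they rose by 0.93 and 0.70 against K562/IM. Against K562 the labelled libraries had log2 fold changes of 0.04 (FAU, adjusted p = 0.88) and 0.14 (RACK1, adjusted p = 0.47).

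Of 19 ribosomal protein genes linked to Diamond-Blackfan anaemia, 18 were lower in K562+L (19.0% of all genes) and 19 in K562/IM (27.1%), and 19 were higher in the labelled libraries against K562/IM (33.2%), beside 68, 77 and 77 of the 77 core genes. Against K562, RPS27 was higher and RPS26 lower there, and 17 did not pass.

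The TOP motif is shared by messages for other translation proteins, and 22 of these were measured. In K562+L 11 were lower and 2 higher (median log2 fold change -0.30), against 19.0% and 18.2% of all genes. In K562/IM 20 were lower and 1 higher (median -0.54), against 27.1% and 30.1%. Against K562/IM the labelled libraries had 17 higher and 3 lower (median 0.74), where 33.2% and 33.6% of all genes were. Against K562, 4 were higher and 5 lower (median 0.12), which is under the 28.2% and 27.8% of all genes. EEF1A1, the elongation factor that delivers aminoacyl-tRNA, fell by 0.52 in K562+L and by 0.55 in K562/IM and rose by 0.99 in the labelled libraries against K562/IM. TPT1, a growth-related protein, fell by 0.78 and 0.51 and rose by 0.89. VIM, the intermediate filament vimentin, went the other way in each, with log2 fold changes of 0.61, 0.88 and -2.23. NPM1, a nucleolar chaperone of ribosome assembly, had log2 fold changes of -0.04 (adjusted p = 0.64), -0.90 (adjusted p = 1.3e-05) and -0.02 (adjusted p = 0.81).

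For the 10 listed regulators of TOP messages the shares of all genes are those just given. In K562+L 3 were higher and 2 lower, in K562/IM 2 and 2, and in the labelled libraries 2 were higher and 3 lower against K562/IM, and 1 was higher and 5 lower against K562. MTOR rose by 0.52 in K562+L and by 0.44 in K562/IM and fell in the labelled libraries against K562/IM (log2 fold change -0.87, adjusted p = 0.00089). LARP1, which binds the cap of TOP messages, rose by 0.48 in K562+L (adjusted p = 0.0077) and had log2 fold changes of -0.18 in K562/IM (adjusted p = 0.086) and -0.13 in the labelled libraries against K562/IM (adjusted p = 0.21). EIF4EBP1 fell by 0.78 in K562+L and by 0.79 in K562/IM. RNA levels say nothing of the activity of these proteins.

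Core genes with the pyrimidine start had medians further from 0 than those without it in each comparison, a difference that was not tested. With the start (46 genes) the median log2 fold change was -0.60 in K562+L, -0.84 in K562/IM and 1.21 in the labelled libraries against K562/IM. The 16 whose annotated starts lacked it had -0.51, -0.71 and 1.02. Against K562 the medians in the labelled libraries were 0.36 with and 0.23 without the start, and in the interaction 1.8 and 1.49. Of the genes that led the comparisons, RPS29, RPS28, RPS26 and RPL3 are among these 16, and for RPS20 no start was found.

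The whole family also moved between libraries of the same group. The mean log2 CPM of the 77 genes was 9.79, 9.98 and 10.28 in the K562 libraries, 9.40, 9.55 and 9.34 in K562+L, 9.19, 9.28 and 9.15 in K562/IM and 10.50, 10.53 and 10.04 in the labelled libraries. The spread was widest in K562 and in the labelled libraries, the groups whose comparison turned on single libraries. Once this shared movement was removed, the deviations of the 77 genes from their group mean followed the GC content of the transcripts in some libraries, with Pearson's r of -0.68 in the first K562 library, 0.54 in the first and -0.60 in the third K562+L library, and between -0.29 and 0.34 in the other 9. These correlations are across genes that share each library and are given as a description. A correction for GC content left 77 genes lower in K562/IM than in K562 and 77 higher in the labelled libraries against K562/IM.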

How the data were processed

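The authors deposited 1 table of gene-level counts for the 12 libraries, read here as raw counts. The submitters' processing notes name FastQC, STAR, StringTie, DESeq2 and the build hg38, without versions or roles, and the counter and its strand setting are not given in the sources used here. Of 23289 values from 1 to 25, 67.9% were a multiple of 4 or 1 above, so that 1 read or fragment may not equal 1 count. Genes passing filterByExpr (minimum count 10) were normalized by TMM and tested with edgeR 4.0.16 (quasi-likelihood, R 4.3.3), on the 6 libraries of each pair of groups and on all 12 for the interaction, with Benjamini-Hochberg adjustment over all genes at 0.05. K562 entered 3 of the comparisons and K562/IM 2, so that they are not independent. DESeq2 1.42.0, other scalings and filters, offsets for GC content or transcript length in 20 bins (added after the data were seen) and leaving out each library were alternatives. Shares of all genes called are given for the main fits only, so that counts under the alternatives stand without them. Shares were compared by exact permutation (scipy 1.17.1). Lengths and pseudogenes came from GENCODE 29, whose symbols matched 19029 of the 19447 genes. Counting error was small beside replicate spread.

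Members and lists were chosen with earlier results of these data known. Genes named were a fixed set of members, paralogs and subunits, up to 6 core genes in each direction with the largest called change and no overlap of libraries, and the 5 highest and 5 lowest levels per length. Genes named in addition, such as those that did not pass, were chosen after their values were seen. Some single genes are not reported here.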

Additional observations from a re-analysis of the deposited data

Results flagged for a closer look

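The difference between the lycorine effects in the lines, as labelled, passed edgeR's interaction test for all 77 core genes, and these values are therefore given singly as log2 differences (K562/IM minus K562). The stalk genes had 1.65 (RPLP0), 2.42 (RPLP1) and 2.06 (RPLP2). In the large subunit the values were 1.47 for RPL3, 1.13 for RPL4, 1.2 for RPL5, 1.49 for RPL10, 1.82 for RPL11, 1.56 for RPL22, 1.62 for RPL36A, 1.79 for RPL39 and 1.94 for RPL41. In the small subunit they were 1.66 for RPSA, 1.59 for RPS6, 1.22 for RPS14, 2.0 for RPS19, 2.63 for RPS27 and 1.80 for RPS27A. Of the genes beside the core, RPL36AL had 1.51, RPS27L 1.98, FAU 1.39 and RACK1 1.07. RPL22L1 had 0.98, and with the length correction 0.24 (edgeR adjusted p = 0.26). RPL7L1 had -1.01, opposite to the core genes. Each of these values rests on the labelled libraries, whose ABCB1 level lay below that of K562.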

How the results depend on the processing

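Requiring a log2 fold change over 1 left 2 core genes lower in K562+L, 14 lower in K562/IM, and 0 higher and 0 lower in the labelled libraries against K562. In that last comparison the 10 genes higher became 25 with DESeq2, 34 with upper-quartile scaling, 32 with total counts, 35 in the fit of all 12 libraries and 35 with the length correction, and RPS26 was not called (0 genes lower) under upper-quartile scaling or the GC correction. Leaving out single libraries gave 1 to 49 genes higher and 0 to 1 lower there, 41 to 74 lower in K562+L and 74 to 77 lower in K562/IM, and 77 higher in the labelled libraries against K562/IM and in the interaction. The replicate block gave 55 genes lower in K562+L, and 1 higher and 0 lower in the labelled libraries against K562. Deviations of same-numbered libraries correlated between -0.52 and 0.10, which shows no pairing by number but cannot exclude one. The length correction moved the median to -0.29 in K562+L, -0.56 in K562/IM, 0.85 in the labelled libraries against K562/IM and 1.11 in the interaction, and RPL26L1 in K562+L from -0.02 to 0.29. Upper-quartile scaling shifted the median of all genes by 0.15 in the labelled libraries against K562 and by 0.13 in the interaction, and total counts by -0.19 in the interaction and in the labelled libraries against K562/IM. Of the alternative values of single genes, 3647 kept direction and call, 96 gained a call, 124 lost it and 1 reversed. The share without mitochondrially encoded genes was not run, since no such symbol is in the table analysed here. With 3 libraries a group, replicate spread and not depth limits what can be told apart.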
